A study of Mus musculus with 9 samples.

Results

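The genes described here are the TAM receptors Axl, Tyro3 and Mertk and their ligands Gas6 and Pros1, 5 genes of the 55154 identifiers that matched a mouse gene symbol. They were taken by symbol from the per-gene read counts, by a rule that uses no measured value, and all 5 were found. The cells were D2A1-d, a mouse breast carcinoma line used in a study of metastatic dormancy, the persistence of disseminated tumour cells that do not grow out. One group carried a non-targeting control hairpin (NTC) and is labelled WT, and the other 2 groups carried different short hairpin RNAs against Med4 (shMed4 #1 and shMed4 #4) and are labelled Med4 Knockdown. Every group was transduced with a hairpin and is otherwise labelled untreated, and each had 3 libraries labelled as biological replicates. The product of Med4 belongs to Mediator, a large coactivator through which transcription factors reach RNA polymerase II. Since it is not stated how far the replicates were kept apart, by transduction or only in culture, the p-values reflect variation among the 9 libraries alone.

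TAM receptors are receptor tyrosine kinases with immunoglobulin and fibronectin domains outside the cell. They do not bind dying cells directly: the vitamin K-dependent proteins GAS6 and protein S (the product of Pros1) carry a Gla domain that attaches to phosphatidylserine on exposed membranes, and their other end engages the receptor. GAS6 is known to bind all of the family, with the highest affinity for AXL, and protein S acts through TYRO3 and MERTK. In tumour cells AXL is known for roles in survival, invasion and drug tolerance, TYRO3 is prominent in the nervous system, and MERTK is best known in macrophages and the retinal pigment epithelium, where it drives the uptake of dying cells and shed membranes.

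The depth was even, with 7572114 to 8582235 reads in genes per library. Med4 itself had 204 to 236 reads in the NTC libraries, 35 to 40 under shMed4 #1 and 50 to 66 under shMed4 #4, which left 16.6% and 26.3% of the NTC level. The groups did not overlap, so Med4 levels matched the labels in every library. Defining markers of the labelled carcinoma cell type were largely missing. Of 12 mammary epithelial markers only Krt8, Krt18 and Acta2 passed the low-count filter, no library held a read of Cdh1 (E-cadherin) or Elf5, and Epcam had 1 read in all 9 libraries.

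Sequences upstream of Axl and Mertk are shown because these receptors moved in opposite directions with both hairpins. Each is the 250 bases before the RefSeq start on GRCm38.p6, from chr7:25788734-25788983 on the minus strand for Axl and chr2:128698665-128698914 on the plus strand for Mertk. Capitals mark exact matches, on either strand, to a GC box (GGGCGG, the core bound by SP1-type factors) or a TEAD core (GGAATG, read by the partners of YAP).
Axl: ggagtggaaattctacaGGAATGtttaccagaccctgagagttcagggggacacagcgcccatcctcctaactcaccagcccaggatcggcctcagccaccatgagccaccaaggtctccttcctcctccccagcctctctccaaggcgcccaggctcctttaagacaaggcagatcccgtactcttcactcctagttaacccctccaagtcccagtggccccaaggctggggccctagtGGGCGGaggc
Mertk: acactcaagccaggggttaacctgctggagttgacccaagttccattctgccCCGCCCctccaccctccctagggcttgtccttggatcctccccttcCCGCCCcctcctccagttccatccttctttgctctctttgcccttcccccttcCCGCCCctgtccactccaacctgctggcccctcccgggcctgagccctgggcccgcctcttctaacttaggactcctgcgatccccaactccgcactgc
The Axl window held 1 TEAD core, which begins 233 bases before the start, and 1 GC box, 10 bases before it. The Mertk window held 3 GC boxes, at 198, 152 and 99 bases, and no TEAD core. Among all 32851 RefSeq promoters, 12.6% of such windows held GGAATG and 32.7% held GGGCGG. All 5 members had a window in the table. Tyro3 had 3 GC boxes, Gas6 4 and Pros1 5, and of these windows only that of Pros1 held the E-box CAGCTG, found in 13% of all promoters. An AP-1 site (TGANTCA, in 6.75% of promoters) and the E-box CACGTG (in 6.02%) were searched in the same way and found in none of the 5 windows. GC content was 60% for Axl, 73.2% for Tyro3, 63.6% for Mertk, 54.8% for Gas6 and 64.4% for Pros1. These are matches of letters, and no binding was measured.

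Axl was by far the most abundant of the receptors in these cells. Levels are compared between genes as TPM, reads per kb of exon scaled to the same sum in each library. On that scale Axl stood at 332 ± 13 in NTC, 267 ± 1.9 under shMed4 #1 and 213 ± 5.1 under shMed4 #4 (SD, n = 3 each), which placed it 372nd, 474th and 613th of 55154 genes. Tyro3 and Pros1 followed at similar levels. Tyro3 had 15.1 ± 0.40, 11.95 ± 1.2 and 15.9 ± 0.60 TPM in NTC, shMed4 #1 and shMed4 #4, and Pros1 had 14.8 ± 1.5, 11.6 ± 0.79 and 12.5 ± 0.14 TPM (SD, n = 3). These neighbours in the order did not differ beyond their spread in NTC or under shMed4 #1, and under shMed4 #4 Tyro3 lay above Pros1 by more than the SD of either. Mertk and Gas6 were near the limit of detection. Mertk had 0.277 ± 0.010 TPM in NTC, 0.766 ± 0.24 under shMed4 #1 and 1.66 ± 0.31 under shMed4 #4, against 0.313 ± 0.15, 0.195 ± 0.089 and 0.0485 ± 0.084 for Gas6 (SD, n = 3). In NTC these values overlapped, and with either hairpin Mertk was the higher of the pair. The cells therefore carried transcripts of AXL and TYRO3 together with protein S, and few of MERTK and GAS6.

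**Figure D1:**
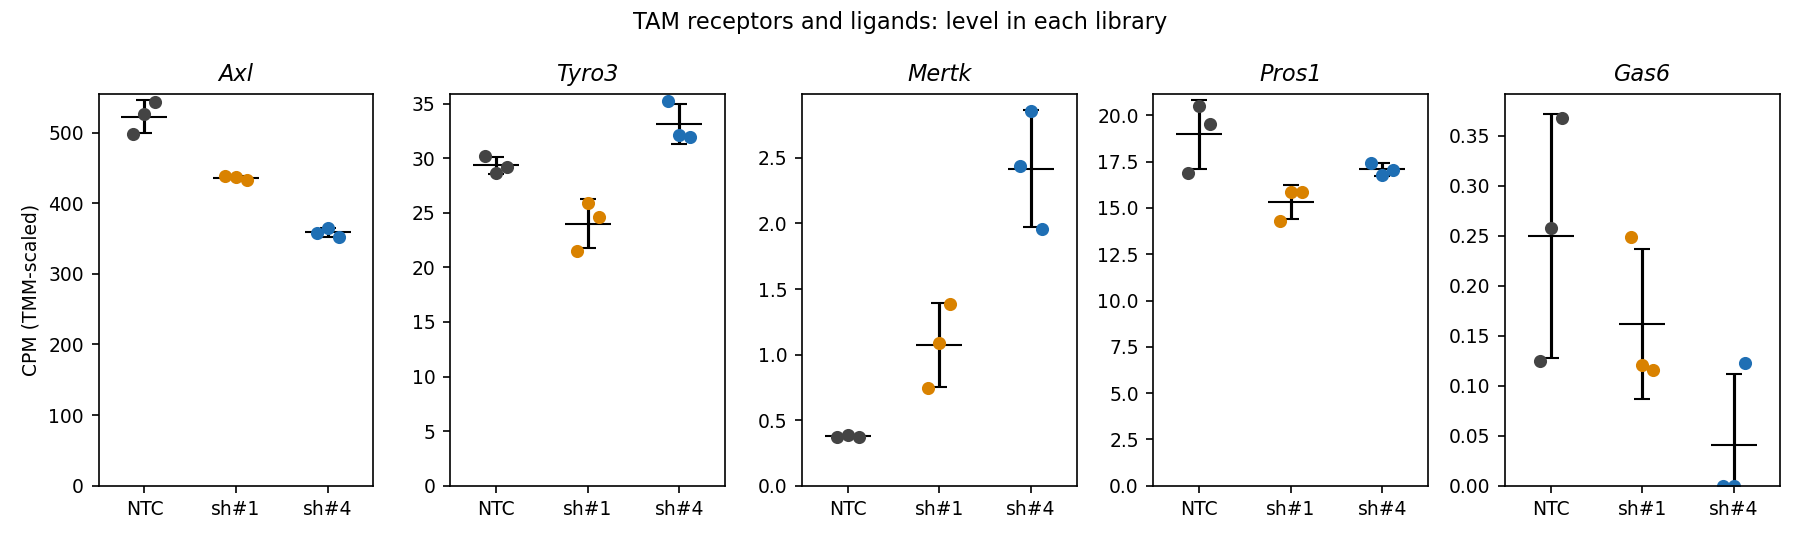
Level of each member in each library as CPM, its read count relative to the TMM-adjusted depth of the library, with 1 panel per gene and its own axis. Points are libraries, horizontal marks are group means and bars are SD over 3 libraries, with the lower bar of Gas6 in shMed4 #4 ending at the axis. Axl steps down from NTC to shMed4 #1 to shMed4 #4, Mertk steps up in the same order, and Gas6 stays under 0.4 CPM.

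Axl (ENSMUSG00000002602.16) encodes the receptor with the highest affinity for GAS6. It lies on chromosome 7 from 25757273 to 25788705 on the minus strand (GRCm38, GENCODE), with 8 transcripts, 19 merged exons and 5033 bases of exon, none shared with another gene. Reads of Axl numbered 4007, 4078 and 4430 in NTC, 3525, 3612 and 3746 in shMed4 #1 libraries and 2936, 2943 and 2877 in those of shMed4 #4. Scaled for depth, these were 498, 527 and 544 CPM in NTC, 438, 437 and 433 under shMed4 #1, and 358, 365 and 353 under shMed4 #4. Every shMed4 #1 library was below every NTC library and every shMed4 #4 library was below all others, with no overlap between any of the groups. Means were 523 ± 23, 436 ± 2.4 and 359 ± 6.4 CPM (SD, n = 3). Differences were tested with the quasi-likelihood test of edgeR on all 14335 genes above a low-count filter, and a gene is said to rise or fall where its Benjamini-Hochberg adjusted p was below 0.05.
Axl fell under shMed4 #1 by 0.26 on the log2 scale, to 83.4% of NTC (SE 0.05, 95% interval -0.36 to -0.16, edgeR adjusted p = 2.89e-05). With shMed4 #4 it fell by 0.54, to 68.6% of NTC (SE 0.05, 95% interval -0.64 to -0.45, edgeR adjusted p = 4.08e-12). The fall was deeper under shMed4 #4, by 0.28 (SE 0.05, 95% interval -0.38 to -0.18, edgeR adjusted p = 2.29e-05), although Med4 was lower under shMed4 #1. Averaged over both hairpins the log2 fold change was -0.40 (SE 0.04, edgeR adjusted p = 1.47e-10). These are changes of less than a factor of 2, in a data set where many genes moved. Of 14335 tested genes, 19.8% were lower under shMed4 #1, 27.3% under shMed4 #4, 26.5% on average and 15.8% with each hairpin alike, so a fall by itself does not set Axl apart. The median size of the log2 change over all tested genes was 0.210 under shMed4 #1 and 0.285 under shMed4 #4. In bulk RNA, fewer cells that carry a transcript and less of it per cell cannot be told apart.

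Tyro3 (ENSMUSG00000027298.17) encodes the second most abundant receptor here. It lies on chromosome 2 from 119797733 to 119818104 on the plus strand, with 8 transcripts and 6198 bases of exon. Libraries of NTC held 243, 222 and 238 reads, those of shMed4 #1 173, 214 and 213, and those of shMed4 #4 289, 259 and 261. In CPM these were 30.2, 28.7 and 29.2, then 21.5, 25.9 and 24.6, then 35.2, 32.2 and 32.0. The order of the groups was shMed4 #4, NTC, shMed4 #1, with no overlap between neighbours. The hairpins thus lay on opposite sides of the control, with means of 29.4 ± 0.79 CPM in NTC, 24.0 ± 2.3 under shMed4 #1 and 33.1 ± 1.8 under shMed4 #4 (SD, n = 3).
With shMed4 #1 Tyro3 fell by 0.29, to 81.8% of NTC (SE 0.09, 95% interval -0.48 to -0.10, edgeR adjusted p = 0.0104). With shMed4 #4 the log2 fold change was 0.17 (SE 0.09, 95% interval -0.0031 to 0.35), which did not pass the threshold (edgeR adjusted p = 0.0900). The difference between the hairpins did pass, at 0.46 on the log2 scale (SE 0.09, 95% interval 0.28 to 0.64, edgeR adjusted p = 0.000122), and 14.2% of tested genes were higher and 13.9% lower under shMed4 #4 than under shMed4 #1. The average over both hairpins, -0.06 (SE 0.08, edgeR adjusted p = 0.556), hides this split. The fall under shMed4 #1 was lost without replicate 1 of that hairpin (log2 fold change -0.22, edgeR adjusted p = 0.0813). Subtracting the median change of the 25 tested genes on each side left -0.12 under shMed4 #1 and 0.36 under shMed4 #4.

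Mertk (ENSMUSG00000014361.5), the receptor best known from phagocytes, lies on the same chromosome 2 from 128698956 to 128802894 on the plus strand, with 2 transcripts and 4336 bases of exon. Each NTC library held 3 reads. The shMed4 #1 libraries held 6, 9 and 12 and the shMed4 #4 libraries 20, 23 and 16. The corresponding levels were 0.373, 0.387 and 0.368 CPM in NTC, 0.746, 1.09 and 1.39 under shMed4 #1, and 2.44, 2.86 and 1.96 under shMed4 #4. Counts were small but the 3 groups were fully separate, in the order NTC, shMed4 #1, shMed4 #4, the reverse of the order of Axl. Separate ranges were common: 49.1% of all tested genes had them between NTC and shMed4 #1. The share was 59.6% between NTC and shMed4 #4 and 40.2% between the hairpins.
Mertk rose under shMed4 #1 by 1.49 on the log2 scale, 2.80-fold (SE 0.51, 95% interval 0.46 to 2.51, edgeR adjusted p = 0.0170). With shMed4 #4 it rose by 2.64, 6.21-fold (SE 0.43, 95% interval 1.77 to 3.50, edgeR adjusted p = 1.95e-06). Its level differed between the hairpins by 1.15 in favour of shMed4 #4 (SE 0.33, 95% interval 0.48 to 1.82, edgeR adjusted p = 0.00795), and the average over both hairpins was 2.06 (SE 0.42, edgeR adjusted p = 8.51e-05). For comparison, 21.8% of tested genes were higher under shMed4 #1, 27.8% under shMed4 #4, 26.8% on average and 17.4% with each hairpin. Mertk entered the test only through its knockdown libraries: the filter asked for 1.21 CPM in 3 libraries, which 0 NTC, 1 shMed4 #1 and 3 shMed4 #4 libraries reached, so its call is given as a value and adds nothing to a count over the members. With DESeq2 the rise under shMed4 #1 had an adjusted p of 0.0557 and the difference between hairpins one of 0.0628. Without replicate 3 of shMed4 #1 the rise was 1.26 (edgeR adjusted p = 0.0961), and without replicate 1 the difference between hairpins was 0.96 (edgeR adjusted p = 0.0523).
Mertk transcripts can come from macrophages, so their markers are given beside it, and the source of its reads was not tested. The summed level of 16 leukocyte and macrophage markers was 130 to 158 CPM in NTC. It was 89.7 to 97.8 under shMed4 #1 and 89.5 to 99.6 under shMed4 #4. Most of that sum was Cd14, at 120 ± 11, 76.8 ± 4.1 and 75.4 ± 4.4 CPM (SD, n = 3). Of the defining markers, Ptprc (CD45) had 6, 4 and 2 reads over the 3 libraries of NTC, shMed4 #1 and shMed4 #4. Adgre1 (F4/80) had 4, 5 and 0. The other untested markers were split at similarly low counts. Fcer1g had 11, 13 and 17 reads, Laptm5 15, 17 and 16, and Aif1 5, 12 and 5. Tyrobp, C1qa, C1qb, C1qc, Mrc1 and Spi1 had fewer reads with either hairpin than in NTC. Among the 4 tested markers Cd14, Lyz2 and Cd68 fell on average, by 0.66, 1.60 and 0.61, and Csf1r had a log2 fold change of 0.03 (edgeR adjusted p = 0.870). The fall of Cd68 was lost without NTC replicate 2 (edgeR adjusted p = 0.0633).

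**Figure D2:**
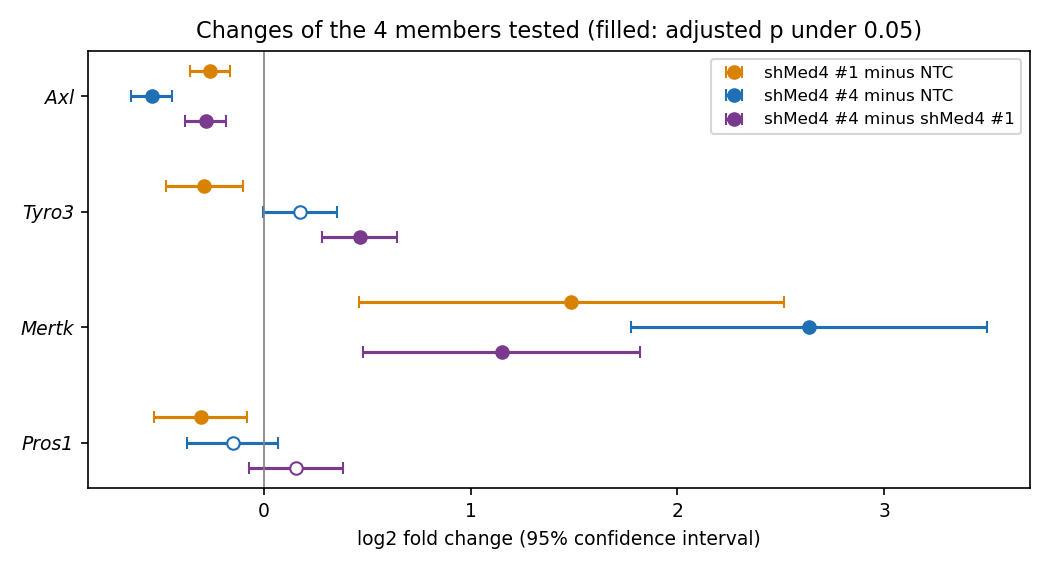
Log2 fold change with its 95% confidence interval for Axl, Tyro3, Mertk and Pros1, for each hairpin minus NTC and for shMed4 #4 minus shMed4 #1. Filled points passed an adjusted p of 0.05. Axl lies left of 0 throughout, from -0.54 to -0.26. Mertk lies right of 0 from 1.15 to 2.64 with wide intervals, and the points of Tyro3 fall on both sides.

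Gas6 (ENSMUSG00000031451.6), the ligand that binds AXL most tightly, lies on chromosome 8 from 13465374 to 13494490 on the minus strand, with 1 transcript, 15 exons and 2548 bases of exon, of which 34 (1.33%) are shared with Tmem255b on the other strand. It was barely detected. Replicates 1 to 3 gave 1, 2 and 3 reads in NTC, 2, 1 and 1 under shMed4 #1, and 0, 0 and 1 under shMed4 #4. The ranges of NTC and shMed4 #1 overlapped, and those of NTC and shMed4 #4 came within rounding of each other, at 0.124 CPM in the lowest NTC and 0.123 in the highest shMed4 #4 library. Over the pooled libraries of a group, 6, 4 and 1 reads gave exact Poisson 95% intervals of 0.0920 to 0.546 CPM in NTC, 0.0437 to 0.410 under shMed4 #1 and 0.00104 to 0.228 under shMed4 #4, which cover counting error only. All 3 intervals overlapped. No library reached the 1.21 CPM of the filter, so Gas6 was not tested. Fitted without any filter, its log2 fold change was -0.59 under shMed4 #1 (SE 1.07, edgeR adjusted p = 0.781) and -2.23 under shMed4 #4 (SE 1.37, edgeR adjusted p = 0.262). A change in Gas6 was not detectable at this depth.

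Pros1 (ENSMUSG00000022912.8) encodes protein S, the ligand of TYRO3 and MERTK and a cofactor of anticoagulant activated protein C. It lies on chromosome 16 from 62854307 to 62929346 on the plus strand, with 3 transcripts and 4088 bases of exon. Reads of Pros1 numbered 136, 159 and 159 in NTC, 115, 131 and 137 under shMed4 #1, and 143, 135 and 139 under shMed4 #4. As CPM this was 16.9, 20.5 and 19.5 in NTC, 14.3, 15.9 and 15.9 under shMed4 #1, and 17.4, 16.8 and 17.0 under shMed4 #4. The shMed4 #1 libraries lay below all others, and the shMed4 #4 libraries overlapped NTC. Means were 19.0 ± 1.9, 15.3 ± 0.90 and 17.1 ± 0.34 CPM (SD, n = 3).
Pros1 fell under shMed4 #1 by 0.31, to 80.9% of NTC (SE 0.11, 95% interval -0.53 to -0.08, edgeR adjusted p = 0.0241). With shMed4 #4 the log2 fold change was -0.15 (SE 0.11, 95% interval -0.37 to 0.07, edgeR adjusted p = 0.244), and the difference between the hairpins, 0.15 (SE 0.11, 95% interval -0.07 to 0.38, edgeR adjusted p = 0.325), did not pass either. The average of both was -0.23 (SE 0.09, edgeR adjusted p = 0.0402). The call was fragile: DESeq2 gave adjusted p values of 0.0768 under shMed4 #1 and 0.109 for the average, and edgeR gave 0.120 and 0.210 without NTC replicate 2.

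Read over the well-counted members, Axl, Tyro3 and Pros1 all fell under shMed4 #1, as did 19.8% of all tested genes. The calls of Tyro3 and Pros1 were lost without replicate 1 of that hairpin (edgeR adjusted p = 0.0813 and 0.0926). Of these 3, only Axl passed as a fall under shMed4 #4, against 27.3% of genes. Pros1 was at 90.0% of NTC there without passing, and its difference between the hairpins did not pass (edgeR adjusted p = 0.325). The CPM ranges of shMed4 #1 and NTC did not overlap for any of these 3 genes, which was so for 49.1% of all tested genes. With shMed4 #4 the ranges were separate for Axl and Tyro3, against 59.6% of genes, and between the hairpins for all 3, against 40.2% of genes. When both hairpins were set together against NTC, only Axl of the 3 was separate, against 37.8% of genes. The comparisons of the hairpins with NTC share the NTC libraries.

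The make-up of the receptor pool was calculated within each library as the share of each receptor in the summed reads per kb of exon of the 3, which does not depend on scaling between libraries. Axl made up 95.2, 95.7 and 95.7% of the pool in NTC, 96.0, 95.1 and 95.2% under shMed4 #1, and 91.9, 92.5 and 92.6% under shMed4 #4. Only the shMed4 #4 libraries lay apart. The share of Tyro3 was 4.37 ± 0.28% in NTC, 4.27 ± 0.39% under shMed4 #1 and 6.93 ± 0.38% under shMed4 #4 (SD, n = 3). That of Mertk was 0.0799 ± 0.0041%, 0.273 ± 0.082% and 0.721 ± 0.12%. With shMed4 #4 the share of Axl was lower than in NTC by 3.20 percentage points, and those of Tyro3 and Mertk were higher by 2.56 and 0.641 points (two-sided exact permutation p = 0.1 for each, the smallest that 3 against 3 libraries allow, 0.133 after adjustment over 12 comparisons). With shMed4 #1 the shares of Axl and Tyro3 differed from NTC by -0.0945 and -0.0986 points (exact permutation p = 0.9 and 0.8), less than their spread. Both receptors fell by similar proportions with that hairpin, and their ratio per kb was 20.3 to 22.9 in NTC, 20.8 to 25.1 under shMed4 #1 and 12.5 to 13.99 under shMed4 #4.
On the ligand side, Gas6 made up 2.03 ± 0.89% of the summed reads per kb of Gas6 and Pros1 in NTC, 1.69 ± 0.88% under shMed4 #1 and 0.380 ± 0.66% under shMed4 #4 (SD, n = 3). Neither difference from NTC passed (exact permutation p = 0.6 and 0.1). The summed receptors exceeded Pros1 per kb by a factor of 21.8 to 25.1 in NTC, 23.3 to 25.9 under shMed4 #1 and 18.1 to 19.1 under shMed4 #4.

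**Figure D3:**
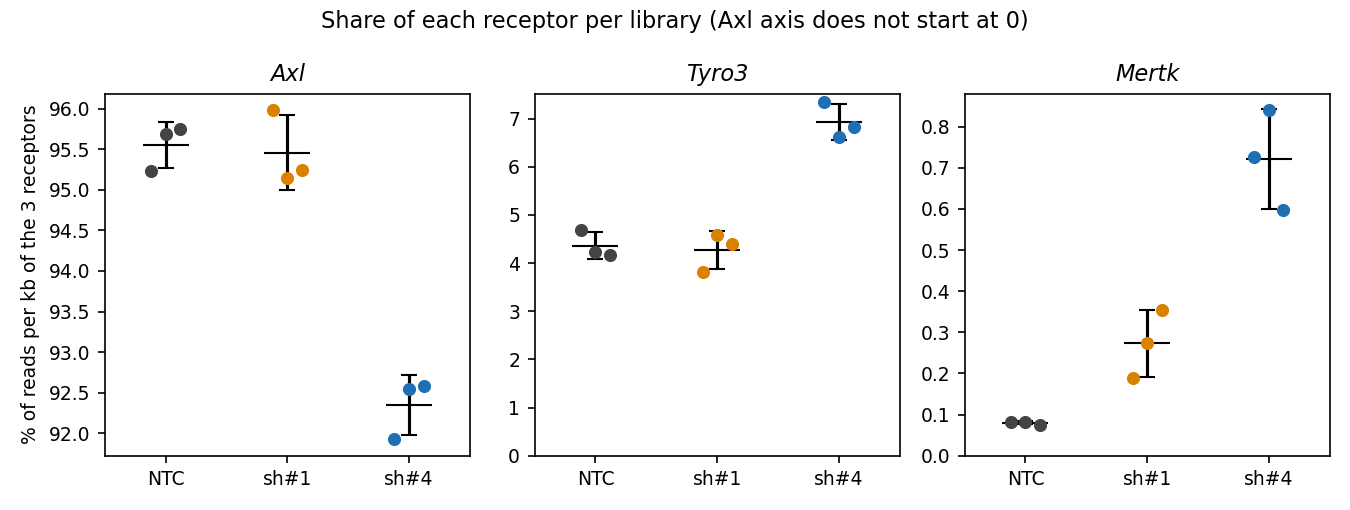
Percent of the summed reads per kb of Axl, Tyro3 and Mertk that each receptor takes, with libraries as points, group means as marks and SD as bars. The axis of Axl does not start at 0: Axl keeps 95.1 to 96.0% in NTC and shMed4 #1 and 91.9 to 92.6% under shMed4 #4, where Tyro3 and Mertk take more.

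Whether the members moved with the genes around them was described with the 10 tested genes on each side, to be read against the 26.8% of all tested genes that rose and the 26.5% that fell for the average of both hairpins. Around Axl, on chromosome 7, the median log2 fold change of the 20 neighbours was -0.02 under shMed4 #1 and -0.11 under shMed4 #4, and for the average 3 rose and 4 fell. The nearest on either side were Hnrnpul1, an RNA-binding protein gene, at 0.08 (edgeR adjusted p = 0.160), and Cyp2s1, a cytochrome P450 gene, at 0.12 (edgeR adjusted p = 0.648). The fall of Axl was larger than both medians but not the largest in its stretch. The lowest of the 20 neighbours stood at -0.75 under shMed4 #1 and -1.42 under shMed4 #4. Around Mertk the medians of the 20 neighbours were below 0, at -0.23 and -0.53, and for the average 0 rose and 11 fell. Next to Mertk, Tmem87b fell by 0.51 (edgeR adjusted p = 1.45e-09) and Anapc1, a subunit of the anaphase-promoting complex, had -0.04 (edgeR adjusted p = 0.523). The lowest of the 20, Fbln7, an adhesion protein gene named after its value was seen, had 75 reads over the 3 libraries of NTC, 32 under shMed4 #1 and 1 under shMed4 #4.
Tyro3 had neighbours with medians of -0.10 and -0.06, of which 2 rose and 8 fell for the average. The next gene on one side, Mga, a repressor of MYC targets, fell by 0.37 (edgeR adjusted p = 1.70e-06), and on the other Rpap1 had -0.07 (edgeR adjusted p = 0.431). Pros1 lay in a gene-poor stretch of chromosome 16, where the 20 neighbours spread from 58468125 to 77116780, with medians of 0.19 and 0.18, and for the average 13 rose and 1 fell, against 26.8% and 26.5% of all tested genes. Its nearest neighbours were Arl13b, a cilium gene, which fell by 0.20 (edgeR adjusted p = 0.00240), and 4930453N24Rik, which rose by 0.28 (edgeR adjusted p = 0.000297). Relative to the median of 25 genes on each side, Pros1 stood at -0.48 under shMed4 #1 and -0.34 under shMed4 #4. Around Gas6 the medians were 0.04 and 0.22, with 9 rising and 1 falling, among them Tfdp1, a partner of E2F, which rose by 0.18 (edgeR adjusted p = 0.00130, but 0.0583 with both hairpins pooled as 1 group), while Rasa3 had -0.0022 (edgeR adjusted p = 0.970). The median over all tested genes was -0.01 with either hairpin.

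**Figure D4:**
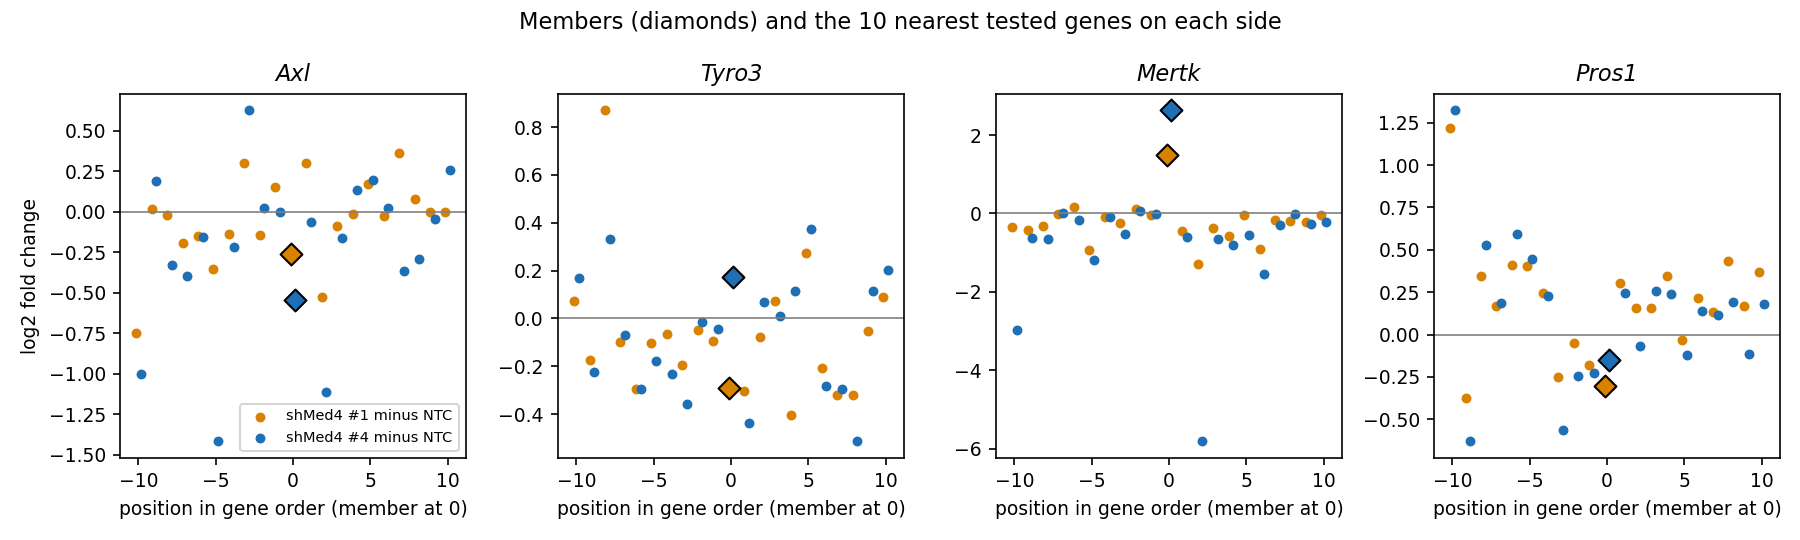
Log2 fold change against NTC of Axl, Tyro3, Mertk and Pros1 (diamonds at 0) and of the 10 nearest tested genes on each side in chromosomal order (points), for shMed4 #1 in orange and shMed4 #4 in blue, with a separate vertical axis per panel. The diamonds of Mertk stand above all 20 neighbours, and those of Pros1 lie below most of theirs.

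Genes whose level followed each member most closely over the 9 libraries were found by Pearson's r of log2 CPM, given as a description because the libraries share their group structure and depth. For Axl the closest were Nptxr, a neuronal pentraxin receptor (r = 0.996), Masp1, a protease of the lectin complement pathway (r = 0.995), and C1s1, a complement C1 protease (r = 0.993). C1s1 went from 414 ± 37 CPM in NTC to 290 ± 9.4 and 182 ± 5.0, in the same order as Axl. Tmem119 ran opposite (r = -0.995), from 27.2 ± 1.4 to 44.0 ± 1.3 and 71.4 ± 2.1 CPM. A graded step of this kind was common, since 290 of 10102 genes had r of at least 0.95 with Axl. Mertk was most like Srpr, a receptor for signal recognition particles (r = 0.991), Plau, the urokinase gene (r = 0.989), and Slc7a5, an amino acid transporter gene (r = 0.988), with Tmem243 opposite (r = -0.988) and 287 of 10103 genes at 0.95 or above. Plau rose from 20.6 ± 1.2 to 36.7 ± 5.0 and 55.5 ± 5.0 CPM.
Fewer genes resembled Tyro3 and Pros1. Tyro3 was followed by Pim3, a serine/threonine kinase gene (r = 0.989), Tcf3, which encodes E proteins (r = 0.984), and Lamp1, a lysosomal membrane protein gene (r = 0.962), with the demethylase gene Kdm2a opposite (r = -0.960). For it only 5 genes reached 0.95. Pim3 stood at 89.4 ± 3.7 CPM in NTC, 75.4 ± 6.1 under shMed4 #1 and 102 ± 2.5 under shMed4 #4, the same split between hairpins as Tyro3. Pros1 was closest to the GTPase gene Arf6 (r = 0.952), Pla2g7 (r = 0.945) and Wbp1l (r = 0.941), with Snx32 opposite (r = -0.963).

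The rest of the TAM pathway is given from lists, as the number of genes that rose or fell for the average of both hairpins. Over all tested genes 26.8% rose and 26.5% fell, with a median log2 fold change of -0.01. Among other reported TAM ligands, Lgals3, which encodes galectin-3, fell. It went from 309 ± 13 CPM in NTC to 223 ± 21 under shMed4 #1 and 131 ± 3.2 under shMed4 #4 (SD, n = 3), an average log2 difference of -0.86 (SE 0.05, edgeR adjusted p = 8.85e-18). The other listed ligands, Tub and Tulp1, had 5 and 3 reads in all and were not tested.
The vitamin K cycle supplies the carboxylation that lets GAS6 and protein S bind membranes. Of its 5 listed genes 4 were tested, 3 rose and 0 fell, with a median of 0.33. Ggcx, the gamma-carboxylase itself, rose by 0.31 (edgeR adjusted p = 3.27e-05), Vkorc1l1, a vitamin K epoxide reductase, by 0.36 (edgeR adjusted p = 1.24e-06), and Calu, whose product calumenin restrains the carboxylase, by 0.38 (edgeR adjusted p = 3.24e-10). Aifm2, a vitamin K reductase, had -0.02 (edgeR adjusted p = 0.862). Vkorc1 was below the filter, and 47.7% of its exon is shared with Gm21974. Of 12 other Gla-domain genes 3 were tested. Mgp, which encodes matrix Gla protein, rose from 0.375 ± 0.21 CPM in NTC to 10.8 ± 0.90 and 8.47 ± 1.2, a log2 increase of 4.61 (SE 0.28, edgeR adjusted p = 1.14e-16). It too passed the filter only through knockdown libraries, with 9 reads in NTC. Prrg2 fell by 0.22 (edgeR adjusted p = 0.0375, but 0.107 with DESeq2, 0.0617 with both hairpins pooled and 0.245 without NTC replicate 3), and Prrg1 had -0.10 (edgeR adjusted p = 0.291, but 0.0256 without NTC replicate 3).
Of 12 genes for the shedding and intramembrane cleavage of receptors, all tested, 4 rose and 4 fell, with a median of 0.03. Timp3, an inhibitor of the sheddases, rose from 129 ± 4.7 to 315 ± 16 and 358 ± 11 CPM, by 1.38 on the log2 scale (SE 0.05, edgeR adjusted p = 5.04e-24). It lies within Syn3 and shares 21.3% of its exon with that gene on the other strand. Aph1c, a low gamma-secretase subunit gene with a near copy in Aph1b, rose by 2.51 (edgeR adjusted p = 8.90e-05), with 6 reads in NTC, 43 under shMed4 #1 and 32 under shMed4 #4. It is 1 of the 4 that rose and, like Mertk, passed the filter only through knockdown libraries. Rhbdf1 fell by 0.19 (edgeR adjusted p = 0.00506) and Aph1a fell by 0.19 (edgeR adjusted p = 0.00894, but 0.0617 with both hairpins pooled and 0.0738 without NTC replicate 1).

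**Figure D5:**
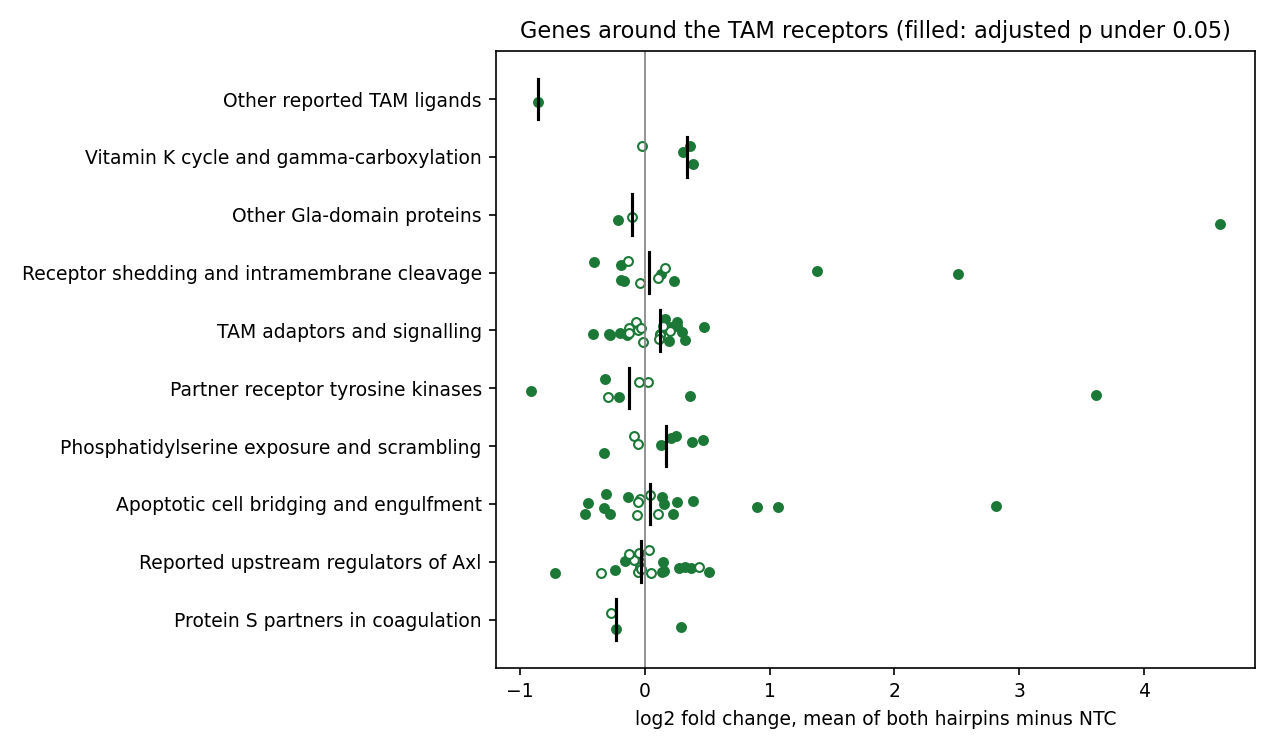
Log2 fold change of each tested gene of 10 lists around the TAM receptors, for the mean of both hairpins minus NTC, with filled points past an adjusted p of 0.05 and a black bar at the median of each list. Most lists spread on both sides of 0, the vitamin K cycle has a median of 0.33, and single genes such as Mgp at 4.61 and Flt1 at 3.62 lie far to the right.

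Downstream of the receptors, 10 of 26 adaptor and signalling genes rose and 5 fell, with 25 tested and a median of 0.12. Pik3r2, a regulatory subunit of PI3 kinase, fell by 0.41 (edgeR adjusted p = 2.50e-09), and Pik3r1, another, fell by 0.29 (edgeR adjusted p = 9.34e-06, but 0.131 with both hairpins pooled). Ptk2, the focal adhesion kinase gene, rose by 0.32 (edgeR adjusted p = 8.84e-07) and the adaptor Crk by 0.26 (edgeR adjusted p = 8.52e-06). Of 12 receptor kinases listed as partners of TAM receptors, 8 were tested, 2 rose and 3 fell, with a median of -0.13. Egfr, a reported partner of AXL, had 9 reads in all and was not tested. Flt1, a VEGF receptor gene, rose from 2.09 ± 0.32 to 23.0 ± 1.8 and 29.0 ± 2.4 CPM, by 3.62 (SE 0.15, edgeR adjusted p = 5.67e-22). Pdgfra fell by 0.91 (edgeR adjusted p = 7.58e-17), Pdgfrb by 0.32 (edgeR adjusted p = 1.58e-06), and Igf1r rose by 0.36 (edgeR adjusted p = 6.34e-08).
The phosphatidylserine that the ligands bind is exposed by scramblases and retrieved by flippases. Of 11 such genes 8 were tested, 5 rose and 1 fell, with a median of 0.17. The scramblase gene Ano6 rose by 0.38 (edgeR adjusted p = 6.04e-09), and so did Tmem30a, the flippase chaperone gene, by 0.25 (edgeR adjusted p = 2.42e-05), while the flippase gene Atp11b fell by 0.32 (edgeR adjusted p = 4.53e-07). Among 24 genes of bridging and engulfment 19 were tested, 8 rose and 6 fell, with a median of 0.04. Itgb3, the integrin beta 3 gene, rose by 2.81 (SE 0.10, edgeR adjusted p = 5.04e-24), from 6.90 ± 0.56 to 42.8 ± 3.7 and 55.1 ± 2.4 CPM, and the engulfment receptor gene Megf10 by 1.07 (edgeR adjusted p = 5.60e-09). Rxra, a nuclear receptor known as a regulator of Mertk in phagocytes, fell by 0.45 (edgeR adjusted p = 1.31e-08), and the scavenger receptor gene Lrp1 fell by 0.32 (edgeR adjusted p = 6.04e-07).
Of 21 reported upstream regulators of Axl, all tested, 7 rose and 3 fell, with a median of -0.03, while Axl fell. Yap1, a coactivator that partners with TEAD factors, rose by 0.37 (edgeR adjusted p = 2.57e-08). Binding of these factors to the core matched in the Axl window was not measured. The AP-1 genes split: Fosl2 fell from 261 ± 13 to 163 ± 7.6 and 154 ± 4.1 CPM, by 0.72 (SE 0.04, edgeR adjusted p = 2.13e-16), and Jun rose by 0.32 (edgeR adjusted p = 2.36e-06), as did Fosl1 by 0.51 (edgeR adjusted p = 3.83e-09), which shares 57.2% of its exon with Ccdc85b on the other strand. Of 6 coagulation partners of protein S 3 were tested, and for the average 1 rose and 1 fell, with a median of -0.23. F3, the tissue factor gene, had -0.23 on average (edgeR adjusted p = 0.00121, but 0.447 with both hairpins pooled), from a fall of 0.60 under shMed4 #1 and a log2 fold change of 0.14 under shMed4 #4. Tfpi, which encodes the inhibitor that protein S assists, rose by 0.85 under shMed4 #1 and fell by 1.39 under shMed4 #4. Procr, the protein C receptor gene, rose by 0.29 (edgeR adjusted p = 0.00424, but 0.0502 with both hairpins pooled).

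Cell type markers, those of the mammary epithelium among them, also changed, and their part in the results was not tested. Mammary epithelial markers summed to 224 to 245 CPM in NTC, 800 to 828 under shMed4 #1 and 1128 to 1308 under shMed4 #4, a step in the order of Mertk and the reverse of Axl. All 3 tested markers rose, Krt8 by 3.03, Krt18 by 2.34 and Acta2 by 1.99. Most of the sum was Acta2, at 212 ± 12, 708 ± 20 and 1003 ± 90 CPM (SD, n = 3), which also marks smooth muscle and myofibroblasts. The untested mammary markers were split at low counts. Trp63 had 22, 22 and 13 reads over the libraries of NTC, shMed4 #1 and shMed4 #4. Krt14 had 0, 9 and 7, Krt17 5, 6 and 9, Krt19 0, 4 and 4, Esr1 1, 2 and 0, and Krt5 1, 0 and 0. Fibroblast markers summed to 264 to 298, 237 to 256 and 230 to 248 CPM. Of 9 listed 5 were tested: Col1a1 and Col1a2 rose by 1.66 and 1.79, and Pdgfra and Pdgfrb fell as given. Postn, given to complete the 5, rose by 1.20 under shMed4 #1 (edgeR adjusted p = 0.00163). With shMed4 #4 it had -0.43 (edgeR adjusted p = 0.369), and the hairpins differed by -1.62 (edgeR adjusted p = 0.000182). It passed the filter only through knockdown libraries, with 37, 89 and 28 reads in NTC, shMed4 #1 and shMed4 #4. Of those not tested, Dcn had 1, 3 and 10 reads, Thy1 5, 0 and 1, Lum 1, 0 and 0, and Fap had no reads. Endothelial markers were low, with sums of 1.81 to 2.11 CPM in NTC, 2.98 to 4.74 under shMed4 #1 and 2.44 to 3.68 under shMed4 #4. Much of this was Cdh5, with means of 0.83, 2.47 and 2.26 CPM. In the same order Esam had 4, 11 and 10 reads, Pecam1 12, 13 and 10, Tek 5, 7 and 2, and Vwf 4, 7 and 1. The 1 tested of 8, Cdh5, rose by 1.48 and passed the filter only through knockdown libraries, with 20, 62 and 55 reads, and Tie1 and Emcn had no reads.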

How the data were processed

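RNA from D2A1-d cells was read on a BGISEQ-500, per the labels' protocols. Per the submitters' processing notes, STAR made the alignments and HTSeq the gene counts, on mm10 (GRCm38). The strand setting, versions, annotation and any poly(A) selection were not given in the sources used here, so reads of overlapping genes cannot be told apart by strand. The deposited values are raw counts per gene, with 1 table per library. HTSeq also wrote 5 summary lines at the end of every table, and these were removed. Reads in no gene made up 49.5 to 51.6% of all records, alignments to several places 10.5 to 11.6% and ambiguous reads 0.863 to 0.951%.

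Groups came from the labels. Chi-square per degree of freedom between replicates was 1.53 to 2.95, so no library was a duplicate. Counts were fitted in R 4.3.3 with edgeR 4.0.16 (limma 3.58.1), by glmQLFit and glmQLFTest on all 9 libraries. TMM factors were 0.969 to 1.03, filterByExpr with a minimum count of 10 left 14335 genes, and the common biological coefficient of variation was 0.0433. P-values were Benjamini-Hochberg adjusted over these genes, with a threshold of 0.05. A standard error is the log2 fold change over the square root of F. The procedure was tested on simulated data. Positions and exon lengths are from GENCODE M21, promoters from RefSeq.

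The members and gene lists were chosen with earlier results of these data known. Named genes are every member, Med4, up to 4 tested genes per list with the smallest averaged adjusted p, the 3 most similar genes and the 1 least similar for each tested member (mean CPM of at least 5), and the nearest tested neighbours. A gene that the rule takes is not reported here. Adam10, Adam17, Psen2 and Fbln7 were named after their values were seen. Postn was added later to complete the tested fibroblast markers and is outside the counts of named genes. Same-numbered replicates deviated from their group means with correlations of -0.0586 to 0.0352 over 9 pairs, so the numbers were not used as pairs. Alternatives were DESeq2 1.42.0, other scaling factors and filters, a fit of only the libraries compared, the replicate block, a threshold of 0.01, the local shift and leaving out each library.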

Additional observations from a re-analysis of the deposited data

Results flagged for a closer look

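The results in this part were picked out because the fitted difference between the hairpins, shMed4 #4 minus shMed4 #1, passed an edgeR adjusted p of 0.05, as it did for 4017 of 14335 genes. Groups of 3 libraries were not screened for single libraries that stand apart. Of the members, Axl differed by -0.28, Tyro3 by 0.46 and Mertk by 1.15 on the log2 scale, with edgeR adjusted p values of 2.29e-05, 0.000122 and 0.00795. For Axl and Mertk both hairpins moved the gene the same way against NTC, and for Tyro3 the values lay on opposite sides of it.

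Among 60 other tested genes (Med4, those the naming rule takes from the lists or beside the members, and those named after their values were seen) 29 differed. Many of the 60 were picked by their adjusted p or values in these same data. Their number is therefore not a rate to set against that of all tested genes. Of the ligands and their processing genes, Lgals3 differed by -0.76, Ggcx by 0.17, Vkorc1l1 by 0.25 and Calu by 0.12. Among the cleavage genes, Timp3 differed by 0.19, Adam10 by -0.29, Adam17 by -0.38 and Psen2 by 0.84. In the signalling and partner receptor lists, Pik3r1 differed by -0.53, Crk by 0.19, Pdgfra by -0.36, Igf1r by 0.38 and Flt1 by 0.34. For membrane exposure and engulfment, Atp11b differed by -0.36, Itgb3 by 0.36, Megf10 by 0.48 and Rxra by -0.29. Yap1 differed by 0.18. Of the 3 tested coagulation genes, Tfpi differed by -2.24 and F3 by 0.74. Of the markers, Col1a2 differed by 0.69, Krt8 by 1.49, Krt18 by 0.72 and Acta2 by 0.50. Med4 itself differed by 0.67. Of the genes next to the members, Hnrnpul1 differed by -0.15, Tfdp1 by 0.20 and Rasa3 by 0.22. Fbln7 had a fitted difference of -4.53, which rests on 32 reads against 1.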

How the results depend on the processing

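Of 431 recomputed values of the main results, 396 were counted as the same. For a fitted log2 fold change this meant the same direction and side of the threshold, and for a share the same direction. For a number of genes it meant a similar number, and for the local shift a move smaller than the spread between replicates. Axl kept its direction, and its call where one was made, in all 19 alternatives of each comparison, between -0.30 and -0.23 with shMed4 #1, -0.59 and -0.51 with shMed4 #4 and -0.44 and -0.37 on average, and so did the difference of Tyro3 between hairpins (0.40 to 0.52). For shMed4 #1, Pros1 no longer passed without a filter (-0.30) or with DESeq2 (-0.31), Mertk did not with DESeq2 (1.52), and at a threshold of 0.01 Tyro3 (-0.29), Mertk (1.49) and Pros1 (-0.31) did not. The average of Pros1 did not pass without a filter (-0.22), with DESeq2 (-0.23), with both hairpins pooled (-0.23) or at 0.01 (-0.23). The Mertk difference between hairpins did not pass with DESeq2 (1.17), and at 0.01 there were 2573 genes against 4017. Leaving out 1 library at a time gave, for shMed4 #1, -0.34 to -0.22 for Tyro3, 1.26 to 1.69 for Mertk and -0.38 to -0.25 for Pros1, for the average of Pros1 -0.31 to -0.17, and for the Mertk difference between hairpins 0.96 to 1.38. Pros1 with shMed4 #1 was lost without NTC replicate 2 (-0.25), NTC replicate 3 (-0.29) or shMed4 #1 replicate 1 (-0.26), and its average also without shMed4 #4 replicate 2 (-0.22) or 3 (-0.22). The differences in share between shMed4 #1 and NTC, which were small, changed sign for Axl (range -0.357 to 0.062 points: 0.0021 without NTC replicate 3, 0.062 and 0.012 without shMed4 #1 replicate 2 and 3), for Tyro3 (-0.254 to 0.122: 0.0634 without NTC replicate 1, 0.122 without shMed4 #1 replicate 1) and for Gas6 (-0.844 to 0.122, the last without NTC replicate 3). Subtracting the local shift gave Tyro3 -0.12, 0.36 and 0.11 and Pros1 -0.48, -0.34 and -0.41 for shMed4 #1, shMed4 #4 and their average. The cause was not tested.

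Fitting the replicate number as a block gave 5828, 7807, 7537 and 3859 genes past the threshold for shMed4 #1, shMed4 #4, the average and the difference, against 5966, 7895, 7640 and 4017, left Axl at -0.26 and -0.54, and changed no member's call; 3 of 9 libraries correlated best with their own number. Upper-quartile factors moved the share of higher calls for the average from 50.4 to 43.5%. Of 59 other named genes, computed as alternatives added after seeing the data, 45 kept their call throughout, 9 lost it, 1 gained one and 4 changed sign, all uncalled: Csf1r with upper-quartile factors (-0.012) and without shMed4 #1 replicate 2 (-0.00861, with 0.0592 as the highest, without replicate 3), Tfpi with both hairpins pooled (0.14), Aifm2 without NTC replicate 2 (0.058) or shMed4 #1 replicate 1 (0.022; lowest -0.0721, without NTC replicate 1), and Rasa3 without a filter (0.010), with both hairpins pooled (0.0019), and without NTC replicate 1 (0.0019), shMed4 #1 replicate 1 (0.0060) or 2 (0.0084) or shMed4 #4 replicate 1 (0.012). Depth limits Gas6 and Mertk, with 11 and 95 reads in all.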

Other observations

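AXL and MERTK are known to be released from the cell surface by the proteases ADAM10 and ADAM17, and the remaining stubs to be cut by gamma-secretase, of which presenilin 2 is a catalytic subunit. Their genes were picked out after their values were seen. Adam10 stood at 165 ± 2.7 CPM in NTC, 199 ± 8.8 under shMed4 #1 and 163 ± 3.5 under shMed4 #4 (SD, n = 3). It rose by 0.27 under shMed4 #1 (edgeR adjusted p = 5.72e-05) and had a log2 fold change of -0.02 under shMed4 #4 (edgeR adjusted p = 0.813). Adam17 stood at 111 ± 2.0, 123 ± 3.6 and 95.05 ± 0.82 CPM. It rose by 0.15 under shMed4 #1 (edgeR adjusted p = 0.0250) and fell by 0.23 under shMed4 #4 (edgeR adjusted p = 0.000764). Psen2 stood at 9.02 ± 1.4, 5.08 ± 0.32 and 9.13 ± 0.33 CPM. It fell by 0.82 under shMed4 #1 (edgeR adjusted p = 0.000134) and had 0.02 under shMed4 #4 (edgeR adjusted p = 0.931). Both sheddase genes were thus higher, and Psen2 lower, under shMed4 #1 than under shMed4 #4.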
